A study of Mus musculus with 5 samples.

Results

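The VEGF and angiopoietin signalling genes described here are 10 ligand and receptor genes of blood vessel growth: Vegfa, Angpt1, Angpt2, Kdr, Flt1, Flt4, Tek, Tie1, Nrp1 and Nrp2. They were taken by symbol from both deposited tables of 32793 genes. All 10 were present, and all 10 passed the filter on low counts that left 15885 tested genes. RNA came from whole embryonic mouse kidneys at embryonic day 15.5 and was sequenced in bulk. The NICD_mut group (2 libraries) carried Six2TGC/+, a Cre recombinase transgene active in nephron progenitors, and RosaN1ICD∆PEST, an allele that yields activated Notch1 once Cre has acted. The NICD_wt group (3 libraries) carried the same RosaN1ICD∆PEST allele without Cre. Since Cre and activated Notch1 were present in the same libraries, their effects cannot be told apart. The labels do not say which animals the libraries represent, so p-values describe only how much these samples vary, possibly for technical reasons.

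Vascular endothelial growth factor A, the product of Vegfa, is secreted in the embryonic kidney mainly by epithelial cells, above all by podocytes, and acts on endothelial cells. Its signalling receptor is encoded by Kdr, while the receptor encoded by Flt1 binds the ligand tightly and, in a soluble form, holds it back. The neuropilins Nrp1 and Nrp2 are co-receptors for VEGF and for class 3 semaphorins. Angiopoietin-1, made by mesenchymal and mesangial cells, activates the endothelial receptor Tek (also called Tie2) and steadies vessels. Angiopoietin-2, made by endothelial and some mesenchymal cells, competes with it and makes vessels open to remodelling. Tie1 is a partner of Tek without a well-established ligand of its own. Counts per gene do not separate the soluble from the membrane form of Flt1, or the isoforms of Vegfa.

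Upstream sequence was available for 8 of the 10 members, and 3 promoters are printed because they belong to the main ligand and to a pair of receptors that were higher in NICD_mut, and because these 3 windows held a match to a motif of RBPJ, the DNA-binding partner of activated Notch. Each is the 250 bases before the RefSeq start (build GRCm38.p6), written 5′ to 3′ along the gene. Capitals mark the RBPJ motif TGGGAA, the ETS motif CCGGAA and the hypoxia response motif ACGTG on either strand. ETS factors regulate many endothelial genes, and Vegfa is a known hypoxia target.
Kdr, chr5:75978456-75978705, minus strand: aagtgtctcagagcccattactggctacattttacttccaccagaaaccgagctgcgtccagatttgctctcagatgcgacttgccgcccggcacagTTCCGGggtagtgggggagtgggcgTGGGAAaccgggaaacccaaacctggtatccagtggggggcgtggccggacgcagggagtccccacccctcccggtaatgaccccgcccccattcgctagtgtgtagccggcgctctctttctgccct
Tie1, chr4:118489850-118490099, minus strand: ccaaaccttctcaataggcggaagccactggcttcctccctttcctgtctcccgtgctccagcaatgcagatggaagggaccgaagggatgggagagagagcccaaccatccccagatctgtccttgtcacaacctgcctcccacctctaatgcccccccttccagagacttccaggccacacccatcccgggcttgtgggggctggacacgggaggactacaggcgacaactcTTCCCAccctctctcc
Vegfa, chr17:46032378-46032627, minus strand: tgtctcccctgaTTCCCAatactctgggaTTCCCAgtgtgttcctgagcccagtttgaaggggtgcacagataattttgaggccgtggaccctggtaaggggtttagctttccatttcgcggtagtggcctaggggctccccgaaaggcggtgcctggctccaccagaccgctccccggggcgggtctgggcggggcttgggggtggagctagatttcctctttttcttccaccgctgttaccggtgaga
Kdr held 1 RBPJ and 1 ETS match, Tie1 held 1 RBPJ match and Vegfa held 2 RBPJ matches. Of all 32851 RefSeq promoter windows of this length, 21.6% held the RBPJ letters, 12.0% the ETS letters and 16.6% the hypoxia response letters. None of the 3 printed windows held the hypoxia response letters, while the window before a second RefSeq start of Vegfa, inside the gene, held 1 such match and 2 RBPJ matches. The RBPJ letters were therefore found in the ligand that did not pass the test as well as in receptors that did, and in none of the windows of Nrp2, Flt1, Nrp1, Flt4 and Tek. A match to 6 letters is a description of the sequence and no binding site.

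Libraries held 17361823 to 21356447 counts. Notch1, the gene whose activated form the transgene encodes, was at 20.1 to 23.5 TPM (a transcript level normalised for gene length and depth) in NICD_wt and 53.8 and 57.5 in NICD_mut. It had a log2 fold change of 1.24 (SE 0.08; edgeR adjusted p = 1.03e-05), and the count does not separate transgene from endogenous transcript. Here and below, an edgeR adjusted p comes from the quasi-likelihood test and is adjusted by Benjamini-Hochberg over all tested genes, with a threshold of 0.05. The podocyte and stromal regulators Wt1 and Tcf21 were present in every library. Wt1 rose by 1.34 log2 (SE 0.24), from 82 to 93 TPM in NICD_wt to 188 and 294 TPM in NICD_mut. Tcf21 was at 265 to 286 TPM and did not pass. NICD_mut 1 stood apart in tissue content. Its 8 skeletal muscle markers summed to 3970 TPM, against 29.1 in NICD_mut 2. In NICD_wt 1, 2 and 3 they summed to 168, 8.90 and 8.32 TPM, so NICD_wt 1 was the highest control. The 7 stromal markers of NICD_mut 1 summed to 4260 TPM, against 1910 in NICD_mut 2 and 916 to 1160 in NICD_wt.

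Of the 10 genes, 8 were higher in NICD_mut, none was lower, and Vegfa and Angpt1 did not pass the edgeR test. Across all tested genes 47.7% were called, 23.0% higher and 24.8% lower. In TPM, 9 of the 10 lay higher in both NICD_mut libraries than in every control, as did 40.8% of all tested genes. Tested against a minimum fold of 1.5 (edgeR glmTreat), 4 members were still called higher, Kdr, Tek, Nrp2 and Angpt2, beside 6.28% of all genes. The 8 that rose were the 5 receptors Kdr, Flt1, Flt4, Tek and Tie1, the co-receptors Nrp1 and Nrp2, and the ligand Angpt2. Their log2 fold changes ran from 0.41 for Flt4 to 1.30 for Angpt2. The median of the 10 was 0.68, beside 0.01 over all tested genes. In whole kidneys, fewer cells of a type and less RNA per cell, or more of either, cannot be told apart.

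**Figure D1:**
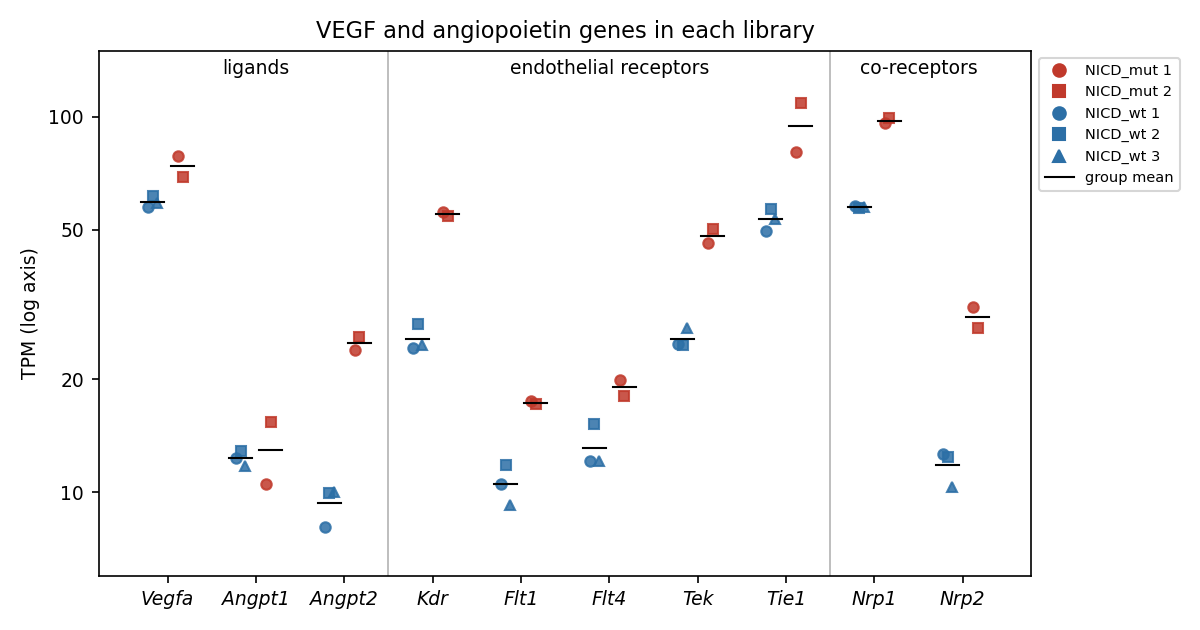
Level of each gene in TPM (log axis) in the 5 libraries, with NICD_wt in blue, NICD_mut in red, marker shape for the library and a black line for the group mean. The receptors, co-receptors and Angpt2 lie higher in both NICD_mut libraries than in any NICD_wt library, Vegfa lies slightly higher, and the Angpt1 values of the groups overlap.

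Vegfa (mm10 chr17:46016993-46032369, minus strand) was at 57.5, 61.4 and 59.1 TPM in NICD_wt 1, 2 and 3 and at 78.6 and 69.0 TPM in NICD_mut 1 and 2. The groups did not overlap, but the nearest libraries were close, and in CPM (counts adjusted for library size but not for length) they were closer, at 99.3 to 108 against 110 and 114. The difference on counts was 0.11 log2 (SE 0.06; edgeR adjusted p = 0.188), which did not pass. On log2(TPM + 1) it was 0.31 (SE 0.07) and passed (limma adjusted p = 0.0156); on that scale 28.0% of all genes were called higher and the median of all genes was itself shifted by 0.111. The call for Vegfa thus differed between the deposited tables. Among 11 genes known to respond to hypoxia, as Vegfa does, 4 fell and 1 rose, beside 24.8% lower and 23.0% higher over all tested genes. The glycolytic enzyme Pgk1 was at -0.89 (SE 0.06) and Ndrg1 at 2.46 (SE 0.07).

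Angpt1 (chr15:42424723-42676977, minus strand) was at 12.3, 12.9 and 11.7 TPM in the NICD_wt libraries and at 10.5 and 15.4 TPM in NICD_mut 1 and 2. It was the only member whose groups overlapped, with NICD_mut 1 below and NICD_mut 2 above every control. Its log2 fold change was -0.04 (SE 0.17; edgeR adjusted p = 0.865). Without NICD_mut 1 it was 0.24 and did not pass (edgeR adjusted p = 0.0846), and without NICD_mut 2 it was -0.39 and passed (edgeR adjusted p = 0.0139). Each of these fits keeps a lone NICD_mut library, whose spread is assumed to be that of the controls.

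Angpt2 (chr8:18690263-18741562, minus strand) was at 8.11, 9.94 and 10.01 TPM in NICD_wt and at 24.0 and 26.0 TPM in NICD_mut. Both NICD_mut libraries were well above the highest control. It had the largest log2 fold change of the 10, 1.30 (SE 0.12; edgeR adjusted p = 4.01e-05), and 92.6% of tested genes ranked at or below it. The ratio of Angpt2 to Angpt1 in TPM was 0.658, 0.770 and 0.853 in NICD_wt, where the Tek activator was the more abundant ligand, and 2.28 and 1.68 in NICD_mut, where Angpt2 was. Its order therefore turned in both NICD_mut libraries.

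Kdr (chr5:75932827-75978458, minus strand), the main VEGF signalling receptor, was at 24.3, 28.1 and 24.6 TPM in NICD_wt and at 55.7 and 54.3 TPM in NICD_mut. The NICD_mut libraries differed by 2.56% and the controls by 15.7% from lowest to highest. The log2 fold change was 0.98 (SE 0.08; edgeR adjusted p = 1.97e-05). Flt1 (chr5:147561604-147726011, minus strand), which encodes the receptor that can act as a decoy, was at 10.5, 11.8 and 9.25 TPM in NICD_wt and at 17.5 and 17.2 TPM in NICD_mut. It rose by 0.64 log2 (SE 0.10; edgeR adjusted p = 0.000919). The Kdr to Flt1 ratio in TPM was 2.31, 2.37 and 2.66 in NICD_wt and 3.19 and 3.17 in NICD_mut, without overlap; this ratio was not tested.

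Flt4 (chr11:49609263-49652739, plus strand) encodes the receptor for VEGF-C and VEGF-D on lymphatic and some blood endothelium. It was at 12.1, 15.2 and 12.1 TPM in NICD_wt and at 19.97 and 18.1 TPM in NICD_mut, and NICD_wt 2 lay nearest to the NICD_mut libraries. Its log2 fold change was 0.41 (SE 0.11; edgeR adjusted p = 0.0157), the smallest among the 8 that passed. The call was lost without NICD_mut 1 (0.37, edgeR adjusted p = 0.0555), without NICD_wt 1 (0.35, edgeR adjusted p = 0.0630) and without NICD_wt 3 (0.35, edgeR adjusted p = 0.0659). It was also lost with replicate number as a block (edgeR adjusted p = 0.0641). Of 6 lymphatic markers 2 rose, 1 fell and 3 did not pass. Lyve1 rose by 1.39 log2 (SE 0.33) and Mmrn1 by 0.86 (SE 0.17), while Pdpn fell by 0.76 (SE 0.17). The 6 markers summed to 154 TPM in NICD_mut 1, 46.9 in NICD_mut 2 and 52.9 to 70.4 in NICD_wt. Much of the spread of this sum came from Ccl21a, which did not pass. It was at 91.8 TPM in NICD_mut 1, 5.02 in NICD_mut 2 and 11.4 to 24.7 in NICD_wt. The lymphatic regulator Prox1 was present at only 0.82 to 2.68 TPM, and the part of lymphatic cells in the Flt4 result was not tested.

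Tek (chr4:94739289-94874976, plus strand), the angiopoietin receptor, was at 24.9, 24.7 and 27.4 TPM in NICD_wt and at 46.3 and 50.2 TPM in NICD_mut, a log2 fold change of 0.79 (SE 0.08; edgeR adjusted p = 6.12e-05). Tie1 (chr4:118471191-118490061, minus strand), its partner, was at 49.8, 56.9 and 53.6 TPM in NICD_wt and at 80.7 and 109 TPM in NICD_mut. All NICD_mut values of both genes were above the controls, but those of Tie1 lay far apart, 34.6% from lower to higher. Tie1 changed by 0.71 log2 (SE 0.15; edgeR adjusted p = 0.0114). Its change was 0.94 without NICD_mut 1 and 0.44 without NICD_mut 2, and it passed in both fits.

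The neuropilins rose to different extents. Nrp1 (chr8:128358604-128503363, plus strand) was at 57.9, 57.2 and 57.5 TPM in NICD_wt and at 96.0 and 99.6 TPM in NICD_mut, with little spread in either group. Its log2 fold change was 0.64 (SE 0.06; edgeR adjusted p = 4.87e-05). Nrp2 (chr1:62703285-62818695, plus strand), which also serves Flt4 and semaphorin 3F, was at 12.7, 12.4 and 10.3 TPM in NICD_wt and at 31.1 and 27.5 TPM in NICD_mut. It changed by 1.15 log2 (SE 0.09; edgeR adjusted p = 2.04e-05). Neuropilins are also made by neural, stromal and myeloid cells. The 8 macrophage markers, all of which rose, summed to 218 and 234 TPM in NICD_mut against 72.8 to 81.6 in NICD_wt, and the 4 peripheral glia markers, of which 3 rose, to 31.8 and 35.3 against 6.02 to 7.10; their part in the neuropilin values was not tested.

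In NICD_wt the order of levels per length was Vegfa, Nrp1, Tie1, Tek, Kdr, Flt4, Angpt1, Nrp2, Flt1 and Angpt2. The neighbours Vegfa and Nrp1, Tek and Kdr, and each pair from Flt4 down to Angpt2 overlapped between libraries. In NICD_mut the order was Nrp1, Tie1, Vegfa, Kdr, Tek, Nrp2, Angpt2, Flt4, Flt1 and Angpt1, with overlap between Nrp1 and Tie1 only. Vegfa moved from the first to the third place and Angpt2 from the last to the seventh.

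Setting the epithelial ligand against its endothelial receptors gave lower ratios in NICD_mut. The Vegfa to Kdr ratio in TPM was 2.37, 2.19 and 2.40 in NICD_wt and 1.41 and 1.27 in NICD_mut. The Vegfa to Flt1 ratio was 5.48, 5.19 and 6.39 in NICD_wt and 4.49 and 4.02 in NICD_mut. Neither ratio overlapped between the groups. Angpt1 to Tek was 0.495, 0.522 and 0.429 in NICD_wt and 0.228 and 0.308 in NICD_mut, and Angpt2 to Tek was 0.326, 0.402 and 0.366 against 0.518 in both NICD_mut libraries. Relative to the shared receptor, Angpt1 was therefore lower and Angpt2 higher in each NICD_mut library than in each control. Ratios were described without a test.

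**Figure D2:**
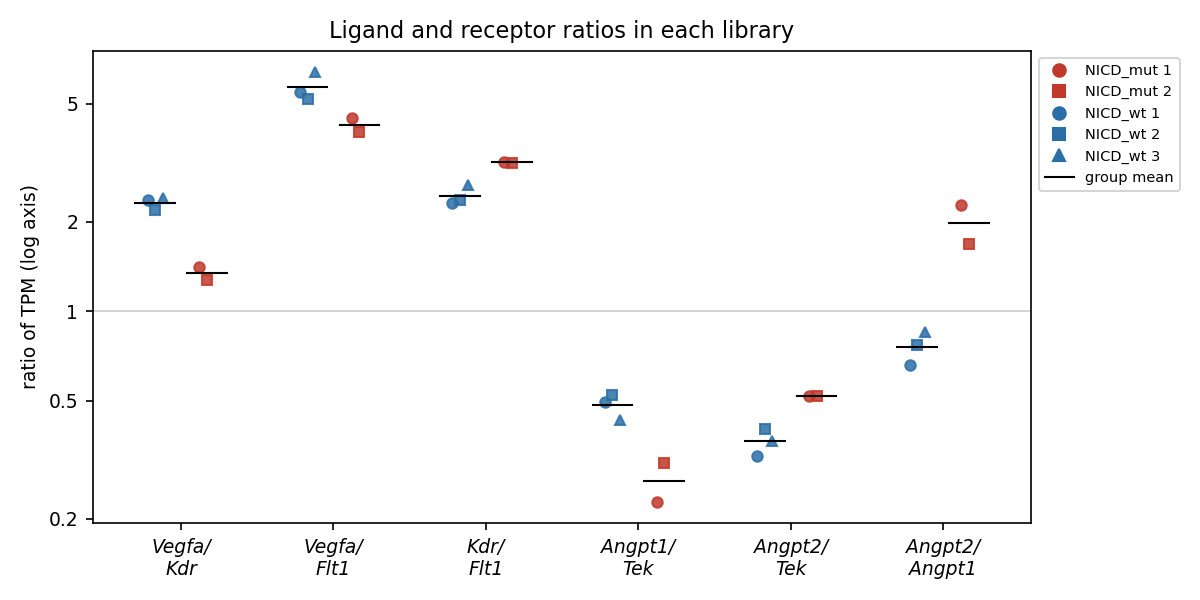
Ratio of TPM between members (log axis) in each library, with a black line for the group mean. Vegfa/Kdr, Vegfa/Flt1 and Angpt1/Tek are lower in both NICD_mut libraries than in every NICD_wt library, and Angpt2/Angpt1 lies below 1 in NICD_wt and above 1 in NICD_mut.

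Endothelial markers moved with the receptors. Of 19 markers that include no member, 17 rose, 1 fell and 1 did not pass, at a median of 0.56 log2; the adhesion gene Cdh5 changed by 0.83 (SE 0.07) and Mmrn2 by 0.70 (SE 0.08), while Ehd3, a gene of glomerular endothelium, fell by 0.40 log2 (SE 0.10). The log2 fold changes of Kdr, Nrp2 and Angpt2 were above those of 18 of the 19 markers, all but Cldn5. Tek was above 14, Tie1 above 12, Flt1 and Nrp1 above 11 and Flt4 above 5. The ligands Vegfa and Angpt1 were above only 1, Ehd3. Red cell transcripts were higher in the same libraries: of 5 erythroid markers 4 rose and 1 did not pass, at a median of 1.05 log2, and they summed to 51200 and 59200 TPM in NICD_mut against 20600 to 26000 TPM in NICD_wt. Alas2, an enzyme of red cell heme synthesis, was at 1.05 (SE 0.10). The part of blood content in the receptor and endothelial values was not tested.

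**Figure D3:**
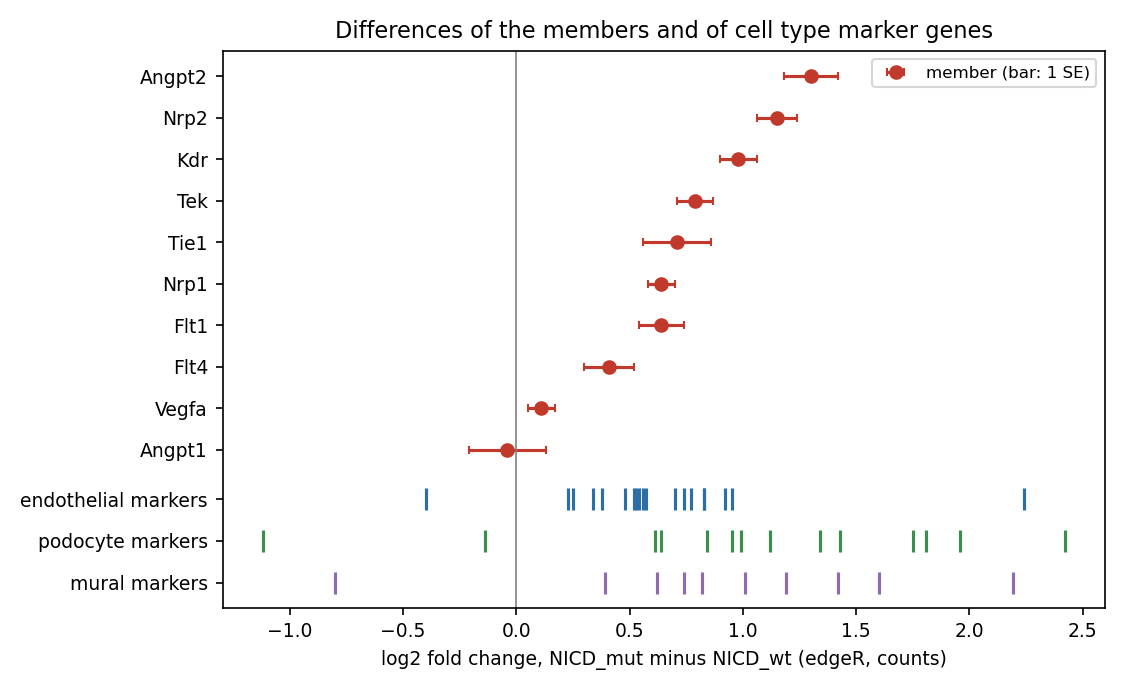
Log2 fold change of each member (points, with bars of 1 SE) above tick marks for single endothelial, podocyte and mural marker genes. Angpt2, Nrp2 and Kdr lie to the right of all endothelial markers but Cldn5, and Vegfa and Angpt1 lie near 0.

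Scaled to the summed TPM of the endothelial markers, the members gave values that depended on Cldn5 and on the NICD_mut library. Cldn5 encodes a tight junction claudin that podocytes also make. It took 14.2 to 15.1% of the summed endothelial TPM in NICD_wt and 31.2 and 40.1% in NICD_mut. Per 100 TPM of all 19 markers, Kdr was at 2.65, 2.81 and 2.72 TPM in NICD_wt and at 3.26 and 2.5 TPM in NICD_mut, which overlapped. Nrp1 (5.61 and 4.58 against 5.72 to 6.34), Tie1 (4.72 and 5.0 against 5.44 to 5.91) and Flt4 (1.17 and 0.833 against 1.33 to 1.53) lay below every control on this scale. Angpt2 (1.4 and 1.2 against 0.887 to 1.1) lay above every control, and Tek, Flt1 and Nrp2 overlapped with the controls. Without Cldn5, a choice made after the data were seen, Kdr was at 3.11, 3.27 and 3.20 in NICD_wt and 4.73 and 4.18 in NICD_mut. Angpt2, Tek, Nrp1 and Nrp2 also lay above every control without Cldn5, while Flt1, Flt4 and Tie1 overlapped with the controls. Nrp1 thus changed side with the choice of marker list. On all 19 markers the log2 difference of Kdr was 0.07, with -0.12 without NICD_mut 1, 0.26 without NICD_mut 2 and -0.05 without Plvap, Cd34 and Ehd3. That of Nrp2 was 0.27, with 0.01 without NICD_mut 1 and 0.53 without NICD_mut 2. Without Cldn5 the log2 difference went from -0.13 to 0.28 for Tek, -0.22 to 0.19 for Tie1 and -0.31 to 0.1 for Flt1. That of Flt4 stayed negative (-0.5 and -0.09) and that of Nrp2 positive (0.27 and 0.68). Whether Kdr, Nrp1, Tek, Tie1 and Flt1 were higher or lower relative to the endothelial markers therefore depended on these choices. Vegfa lay below every control on either scale, at 7.16 to 7.68 against 6.67 and 5.30 without Cldn5.

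Podocyte markers, which mark the main epithelial source of Vegfa, also rose on counts, where Vegfa did not pass. Of 14 markers 12 rose, 1 fell and 1 did not pass, at a median of 1.05 log2, with the glomerular collagen gene Col4a3 at 2.42 (SE 0.16) and Plce1 at 1.43 (SE 0.10). Their sum was 651 to 693 TPM in NICD_wt and 1030 and 1330 TPM in NICD_mut. The largest part of it in NICD_wt was Tcf21, the marker that did not pass, at 265 to 286 TPM. In NICD_mut 1 and 2 Tcf21 was at 269 and 281 TPM. Vegfa itself was higher in TPM in both NICD_mut libraries than in every control, and passed on log2(TPM + 1) (limma adjusted p = 0.0156). Per 100 TPM of podocyte markers, Vegfa was at 8.84, 8.86 and 8.73 in NICD_wt and at 7.59 and 5.20 in NICD_mut, lower in both. The log2 difference of this ratio was -0.49, with -0.76 without NICD_mut 1, -0.21 without NICD_mut 2 and -0.84 in CPM in place of TPM. Tubule and collecting duct epithelium also makes Vegfa. Among its 14 markers 10 fell and 3 rose, with Calb1 at -9.09 (SE 0.11) and Gatm at 3.41 (SE 0.09); what these segments add to the Vegfa level was not tested. Among 10 mural and mesangial markers, which mark cells that make Angpt1, 4 rose, 1 fell and 5 did not pass; Cspg4 was at 1.42 (SE 0.10) and the mesangial integrin Itga8 at -0.80 (SE 0.11). Their sum was 1150 TPM in NICD_mut 1 and 501 TPM in NICD_mut 2, against 382 to 482 TPM in NICD_wt. Acta2, which did not pass, was the largest part in NICD_mut 1, at 396 TPM. It was at 80.0 TPM in NICD_mut 2 and 102 to 146 in NICD_wt. Pdgfrb, which rose, was at 108 and 143 TPM in NICD_mut 1 and 2 and 48.2 to 53.2 in NICD_wt. The other mural markers that passed were higher in NICD_mut 1 than in NICD_mut 2. How these cells relate to the Angpt1 level was not tested.

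Among other ligands and processing genes of the pathway, 3 of 6 rose, none fell and 3 did not pass, at a median of 0.53 log2. Vegfd, a ligand of Flt4, was at 22.4, 26.1 and 19.8 TPM in NICD_wt and at 55.4 and 45.2 TPM in NICD_mut, a log2 fold change of 1.03 (SE 0.15; edgeR adjusted p = 0.000675). Pgf, a ligand of Flt1, changed by 0.63 (SE 0.18) and Ccbe1, which helps to activate VEGF-C, by 0.77 (SE 0.20). Vegfc was at 0.27 (SE 0.13) and did not pass. Only 1 of the 6 rose without NICD_wt 1. Of 3 other genes of the angiopoietin pathway, Ptprb, the phosphatase that restrains Tek, changed by 1.08 (SE 0.15) and Svep1 by 1.27 (SE 0.27), while Angpt4, at -0.09 (SE 0.72), did not pass; 1 of the 3 rose without NICD_wt 1.

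Class 3 semaphorins and plexins, which share the neuropilins with VEGF, included 7 that rose, 1 that fell and 4 that did not pass of 12, at a median of 0.44 log2. Sema3g was at 14.1, 17.1 and 13.8 TPM in NICD_wt and at 142 and 187 TPM in NICD_mut, a log2 fold change of 3.33 (SE 0.18; edgeR adjusted p = 0.000101). Sema3c rose by 0.55 (SE 0.05) and Sema3b by 0.46 (SE 0.10). Sema3a, a repellent guidance ligand of Nrp1, was the only member of this list that fell, by 0.56 log2 (SE 0.08), at 13.5 to 15.7 TPM in NICD_wt and 10.2 and 11.4 in NICD_mut.

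Signalling genes downstream of the receptors were mixed. Of 21 tested from a list of 22, 8 rose, 3 fell and 10 did not pass, at a median of 0.11 log2; 10 rose without NICD_mut 1. Prkcb, a protein kinase C, changed by 1.98 (SE 0.12), the kinase Fyn by 0.80 (SE 0.08), the adaptor Pxn by 0.76 (SE 0.06) and the endothelial nitric oxide synthase Nos3 by 0.79 (SE 0.12). Of 11 genes that endothelial cells are known to raise on VEGF exposure, 3 rose, 3 fell and 5 did not pass, at a median of -0.04. These counts are near the shares over all tested genes, 23.0% higher and 24.8% lower. Kcne3, which fell, held only 4 and 3 counts in NICD_mut and 9 to 23 in NICD_wt. With at least 50 counts required in 2 libraries, 4 rose and 2 fell. Pdgfb, which recruits pericytes, was at 17.5 to 18.7 TPM in NICD_wt and 36.4 and 39.4 in NICD_mut, a change of 0.93 (SE 0.08). Nid2 rose by 0.93 (SE 0.08) and Unc5b by 1.02 (SE 0.11). Cxcr4, a chemokine receptor, was at 25.3 to 29.1 TPM in NICD_wt and 15.9 and 16.4 in NICD_mut, a fall of 0.85 log2 (SE 0.12). Other kidney cells also express Cxcr4, and which cells gave the values of any gene on this list, risen or fallen, was not tested.

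**Figure D4:**
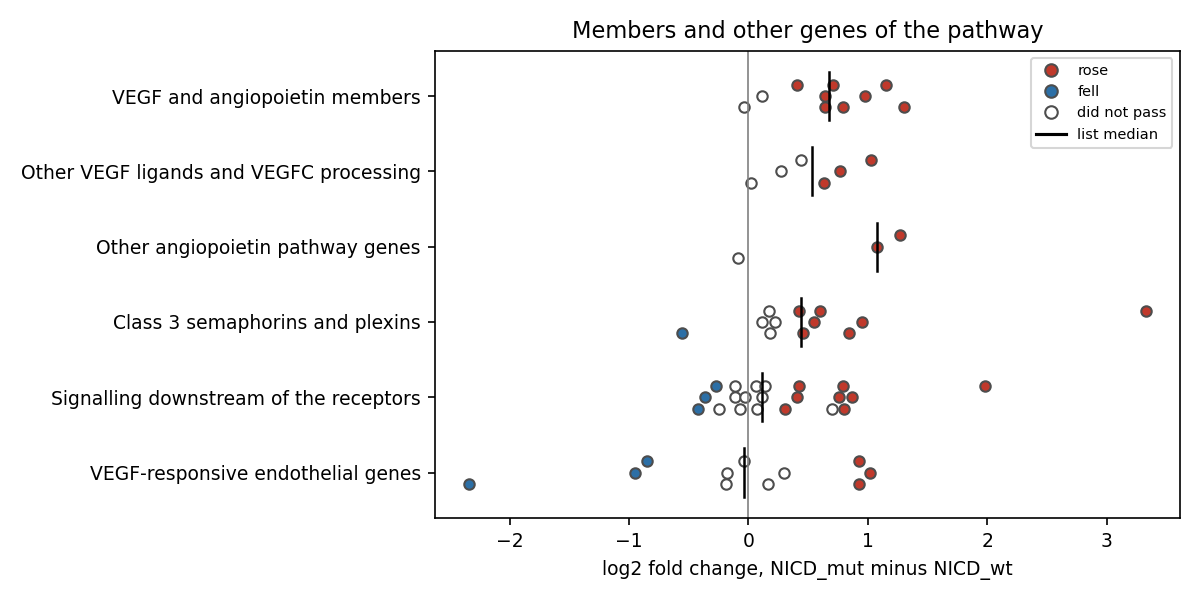
Log2 fold change of every tested gene in the list of members and in the 5 other lists of the pathway, with red for genes that rose, blue for genes that fell, open points for genes that did not pass, and a black line for the list median. The list medians of the first 4 rows lie between 0.44 and 1.08, and those of the downstream and VEGF-responsive genes at 0.11 and -0.04.

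By the shape of their levels over the 5 libraries, the genes nearest to Kdr were Slc34a1, a phosphate transporter of the proximal tubule, Tnfsf12, Cyp2j6 and Myh9, with a root mean square difference of 0.0266 to 0.0313 in centred log2 CPM among 11226 genes compared. Those nearest to Vegfa were Ap4b1, Jmjd1c, Kif3b and Fam160a2, with differences of 0.0099 to 0.0146. With 5 libraries in 2 groups, such likeness describes these libraries.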

How the data were processed

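The submitters' processing notes name RSEM, Bowtie2 and the mm10 build; no version, annotation or strand setting is given in the sources used here. The authors deposited estimated counts per gene symbol, as whole numbers, and TPM values; columns were matched to samples by name. Genes were filtered with filterByExpr (minimum count 10, minimum total 15), scaled by TMM, and tested with the edgeR 4.0.16 quasi-likelihood test in R 4.3.3, NICD_mut against NICD_wt over all 5 libraries, with Benjamini-Hochberg adjustment over 15885 genes and a threshold of 0.05. SE values come from that fit. Alternatives used DESeq2 1.42.0 and limma 3.58.1 (pseudocounts of 1 and 0.1 on TPM). The tests were run on simulated counts with few changed genes and no difference in tissue content between libraries. That setting differs from these data, so the check does not cover them.

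The members, 17 gene lists and tests were chosen with earlier results of these data known. Text names all members, the 4 genes of each pathway list and 2 of each marker list with the smallest adjusted p, a gene alone against its list, and the 4 profiles nearest to Vegfa and Kdr (mean log2 CPM of at least 3). Not every gene named by this rule is reported here. Beyond that rule, Cldn5, Wt1, Tcf21, Prox1, Acta2, Pdgfrb, Lyve1, Ccl21a and Kcne3 were named after their values were seen. No list was set tested. Promoters are from RefSeq (GRCm38.p6); chromosomes of genes are from GENCODE for mm10.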

Additional observations from a re-analysis of the deposited data

How the results depend on the processing

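Kdr, Tek, Nrp2 and Angpt2 were higher and passed under all 16 alternatives of the fit, and 7 to 9 members were higher under 15 of them. With a minimum fold of 1.5 (edgeR glmTreat) 4 members were higher, 1695 of all genes were called, and the lists gave 1 other VEGF gene, 1 other angiopoietin gene, 1 semaphorin or plexin, 3 downstream genes that rose, and 0 that fell among semaphorins and plexins, downstream genes and VEGF-responsive genes. Angpt1 turned sign: 0.05 on log2(TPM + 1) and on log2(TPM + 0.1), 0.24 without NICD_mut 1 (-0.39 without NICD_mut 2), and 0.23 without NICD_mut 1 and NICD_wt 1, an exclusion added after the data were seen. Vegfa passed by limma on both TPM scales. Leaving out 1 library gave 5888 to 7957 called genes, 7 to 8 members higher and 0 to 1 lower, 1 to 3 other VEGF genes and 1 to 2 other angiopoietin genes that rose.

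Log2 differences of ratios moved as follows. Angpt1 over Tek was -0.86, and -1.08 to -0.64 with 1 library left out. Vegfa over summed endothelial markers was -0.73, and -0.99 to -0.46 with 1 library left out, and -0.32 without Cldn5. Vegfa over summed Kdr and Flt1 was -0.69, and -0.79 in CPM. Vegfa per 100 TPM of podocyte markers was -0.49, and -0.84 in CPM. Without NICD_mut 1 and NICD_wt 1 they were -0.62 for Angpt1 over Tek, -1.0 for Vegfa over endothelial markers and 1.06 for Angpt2 over Angpt1. The causes were not tested.

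Replicate numbers are shared by only 2 libraries of each group. Deviations of same-numbered libraries correlated at 0.34 and 0.149, and those of the differently numbered NICD_mut 2 and NICD_wt 3 at 0.234. The deviations of 2 NICD_mut libraries from their mean mirror each other by construction. These values, from too few pairs, therefore cannot show pairing. With the replicate block 5535 genes were called and 7 members were higher, Flt4 no longer passing. The difference of Vegfa on counts was 0.11 log2 (SE 0.06), and how small a difference 2 NICD_mut libraries could show was not tested.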
